A study of Mus musculus with 5 samples.

Results

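The 9 genes Tcf7, Lef1, Bach2, Foxo1, Foxp1, Id3, Satb1, Klf3 and Bcl6 encode transcription factors of naive and memory CD8 T cells. They were taken by gene name from the 11564 genes of the deposited expression table, all 9 were found, and all 9 passed the filter on low values. The table came from RNA sequencing of sorted mouse CD8 T cells, which recognise antigen on MHC class I and can kill the cells that carry it. The study compared 3 libraries whose genotype is given as PHD2-deltaT, described as a PHD2 knockout, with 2 wild type (WT) libraries. PHD2, encoded by Egln1, is an oxygen sensor: in normal oxygen it hydroxylates the alpha subunits of the HIF transcription factors, which are then degraded. The labels give no strain, age, deleting Cre line, culture or stimulation, and do not say whether libraries came from separate animals, so that the spread behind each p-value is that between libraries and may be technical.

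Naive CD8 T cells stay quiescent and able to renew themselves, and after activation they either become short-lived effector cells or return to rest as memory cells. TCF1 (the product of Tcf7) and LEF1 are related HMG box factors that keep this naive and memory programme in place. FOXO1, which growth factor signals through AKT drive out of the nucleus, induces the genes for lymph node homing and interleukin 7 sensing, and FOXP1 keeps naive cells quiescent. BACH2 and BCL6 are repressors of effector genes, ID3 holds E proteins away from DNA, SATB1 organises chromatin, and KLF3 is a repressor of the KLF family.

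The labels were checked against the data before the factors were compared. Egln1 itself stood at 5447, 4327 and 4993 normalized counts where the label is PHD2-deltaT, above the 1927 and 2182 of WT. Counts over a whole gene cannot separate deleted from kept exons, so Egln1 here is no check of the deletion, and below PHD2-deltaT means only the libraries with that label. The defining CD8 T cell markers were high, Cd8a at 15829 to 17936 normalized counts over the 5 libraries, and Cd8b1, at 10833 to 11903. The effector and activation genes Gzmb, Ifng and Il2ra were high in both genotypes, and each lay higher in every PHD2-deltaT library than in WT. Gzmb stood at 29717 to 34305 in PHD2-deltaT against 22575 and 25573 in WT, and Ifng at 9117 to 11011 against 4479 and 4005. Il2ra, which was not called (limma-trend adjusted p = 0.184), stood at 10303 to 11420 against 9352 and 9445. Values of the factors are therefore not to be read as those of resting CD8 T cells. How the cells were stimulated, if they were, is not given. Of the markers of other cells, 7 of 16 B cell, 7 of 8 CD4 or regulatory T cell, 7 of 10 natural killer, 5 of 14 myeloid and 0 of 6 erythroid markers were tested, and the others, Cd4, Ncr1 and Lyz2 among them, were not analysed here. The sums of these lists rest on a few abundant genes, so members are given beside them. For comparison, 16.0% of all genes tested lay higher in every PHD2-deltaT library than in WT. At an adjusted p under 0.05, 2.97% of all genes tested were called as higher. The summed B cell markers, mostly Ighm, ran from 5840 to 6637 in PHD2-deltaT and from 6073 to 6607 in WT, but 6 of the 7 lay higher in every PHD2-deltaT library than in WT and 2 were called. These were the MHC class II gene H2-Ab1, at 85.1 to 155 normalized counts against 10.9 to 21.1, and the invariant chain gene Cd74, at 480 to 530 against 319 to 353. The summed myeloid markers, mostly Cst3, ran from 1326 to 1483 against 1162 to 1367, and 2 of the 5 were called as higher. These were Ly6c1, at 72.9 to 87.3 against 21.1 to 27.7, and the integrin gene Itgax, at 81.9 to 98.3 against 39.3 to 43.6. Itgax was lost without WT replicate 1 (limma-trend adjusted p = 0.0585). Cd68 leaned lower, at 61.8 to 82.4 against 80.3 to 97.6, and Cd68, Cst3 and Fcgr3 overlapped between genotypes. Ly6c2, listed below as a memory marker of CD8 T cells, was also higher, at 3368 to 3679 against 2269 to 2627. Whether Ly6c1 and Itgax reads came from myeloid cells or from CD8 T cells was not tested. The summed natural killer markers, mostly Xcl1 and Nkg7, which CD8 T cells also express, ran from 20848 to 24994 against 21173 to 25471. Of these 7, 4 lay higher in every PHD2-deltaT library, and the receptor gene Klrk1 was called, at 333 to 425 against 261 to 265 (limma-trend adjusted p = 0.0403). Klrk1 was lost in 3 of the 5 fits that left out 1 library, those without PHD2-deltaT replicate 2, WT replicate 1 or WT replicate 2. The summed CD4 and regulatory T cell markers, mostly the activation-induced receptor gene Il2ra, ran from 11626 to 12616 against 10412 to 10577, with 4 of the 7 higher in every PHD2-deltaT library and 0 called. Mitochondrially encoded genes, a rough sign of RNA and cell condition, took 0.345% to 0.437% of the counts in PHD2-deltaT and 0.504% to 0.649% in WT. This share is partial, since 7 of the 13 listed genes were tested and the others were not analysed. All 7 lay lower in every PHD2-deltaT library, and 6 were called as lower (median log2 fold change -0.52), with 1.02% of all genes called as lower. Limma without the mean-variance trend called 0 of them, and robust eBayes 2. WT replicate 2 held the larger share, 0.649% against 0.504% in WT replicate 1. With 1 library left out, the log2 fold change of mt-Nd1 ran from -0.82 to -0.43. The part of these differences in the results below was not tested. In RNA from a cell population, fewer cells of a type and less RNA per cell cannot be told apart.

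As the regions where transcription of the factors starts, the RefSeq promoter windows (GRCm38.p6, the mm10 build, 250 bases before to 50 after the start) were read for all 9 genes. The windows were searched on both strands for ACGTG and GCGTG, the core letters of the hypoxia response element that HIF binds, and for TGACTCA, the core of the element that BACH2 binds. The 9 genes have 20 windows, of which 7 hold ACGTG or GCGTG, each from a different gene, and 0 hold TGACTCA. Over all 32851 mouse windows the shares were 43.8% for ACGTG or GCGTG and 5.20% for TGACTCA. The Bach2 window, at chr4:32417185-32417434 on the plus strand for its part before the start, is shown because Bach2 was the factor that fell. This RefSeq start lies inside the longer GENCODE gene. The window holds none of the 3 motifs, so no letter is in capitals:
Bach2: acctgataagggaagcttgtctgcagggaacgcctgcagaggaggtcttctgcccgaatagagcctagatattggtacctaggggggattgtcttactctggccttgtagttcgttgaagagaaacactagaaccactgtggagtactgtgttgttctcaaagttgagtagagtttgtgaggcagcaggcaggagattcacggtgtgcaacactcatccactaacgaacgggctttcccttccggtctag

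The stretches below show where the hypoxia response core lies before the start of factors that were not called, with the match (either strand) in capitals. In Bcl6 and in a downstream Lef1 window it forms CACGTG, which reads the same on both strands and counts as a match on each:
Bcl6, chr16:23988882-23988936, minus strand: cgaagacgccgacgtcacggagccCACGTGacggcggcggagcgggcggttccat
Lef1, chr3:131156191-131156245, plus strand: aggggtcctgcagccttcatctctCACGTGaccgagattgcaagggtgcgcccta
Id3, chr4:136143789-136143821, plus strand: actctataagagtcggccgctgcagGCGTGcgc
Klf3, chr5:64803333-64803387, plus strand: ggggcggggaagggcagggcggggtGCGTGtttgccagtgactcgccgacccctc
Foxo1, chr3:52268087-52268119, plus strand: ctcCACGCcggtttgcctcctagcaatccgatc
Counted back from the start, the match begins 60 bases away in Bcl6, 79 in Lef1, 8 in Id3, 163 in Klf3 and 247 in Foxo1. Satb1 also has matches before a start, Foxp1 has its match after the start, and the Tcf7 windows have none. A match is only a run of letters, and its absence from a window says nothing about binding elsewhere.

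Levels can be compared between genes only per length, so each value was divided by the kilobases of exon annotated for the gene. Tcf7 stood far above the others, with a median over the 5 libraries of 5126 normalized counts per kb (4756 to 5394), higher than 98.5% of the genes in the table. Bcl6 was the lowest, with a median of 47.5 normalized counts per kb (42.7 to 52.7), higher than 27.8% of the genes. The medians of Tcf7 and Bcl6 lay 108-fold apart.

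Between them came Id3 with a median of 753 normalized counts per kb (646 to 808), clear of its neighbours. Lef1 (median 485), Bach2 (457) and Foxp1 (430) followed with ranges that overlapped. Satb1 (320) and Foxo1 (298) also overlapped each other, and Klf3 (175) lay alone above Bcl6. The order of Lef1 and Bach2 was not the same in all libraries. In both WT libraries Bach2 (580 and 610 normalized counts per kb) lay above Lef1 (485 and 451). In PHD2-deltaT Bach2 (422, 457 and 442) overlapped Lef1 (510, 447 and 543), above it in replicate 2 and below it in replicates 1 and 3. Dividing by all annotated exons lowers the level of genes with long or alternative exons that the cells do not use, such as Satb1 with 19027 annotated exon bases.

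**Figure D1:**
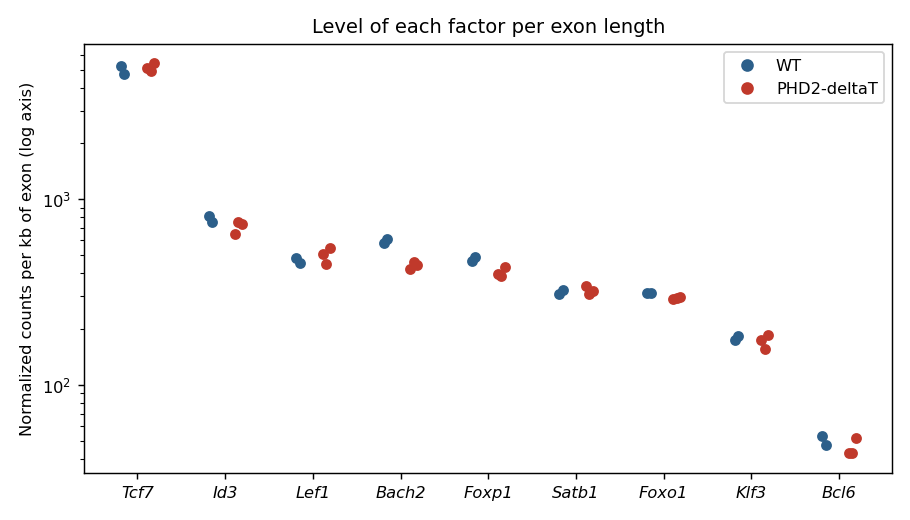
Level of each of the 9 factors, in normalized counts per kilobase of exon on a log axis, with a point for each of the 2 WT and 3 PHD2-deltaT libraries. Tcf7 lies between 4756 and 5394 and Bcl6 between 42.7 and 52.7, with the other 7 factors between them.

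Against this background the genotypes were compared factor by factor. Of the 9, 1 was lower and 0 were higher in PHD2-deltaT at an adjusted p under 0.05 (limma-trend on log2(value + 1), Benjamini-Hochberg over 11534 genes). Over all genes tested, 1.02% were called as lower and 2.97% as higher, and a single call among 9 genes does not set the group apart. The median log2 fold change of the 9 was -0.09, and -0.01 over all genes tested. All values of PHD2-deltaT lay below those of WT for 4 of the 9 (Bach2, Foxp1, Foxo1 and Id3), against 14.5% of all genes tested. Of the 9, 0 had all values of PHD2-deltaT above WT, against 16.0% of all genes tested, and the groups overlapped for the other 5.

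**Figure D2:**
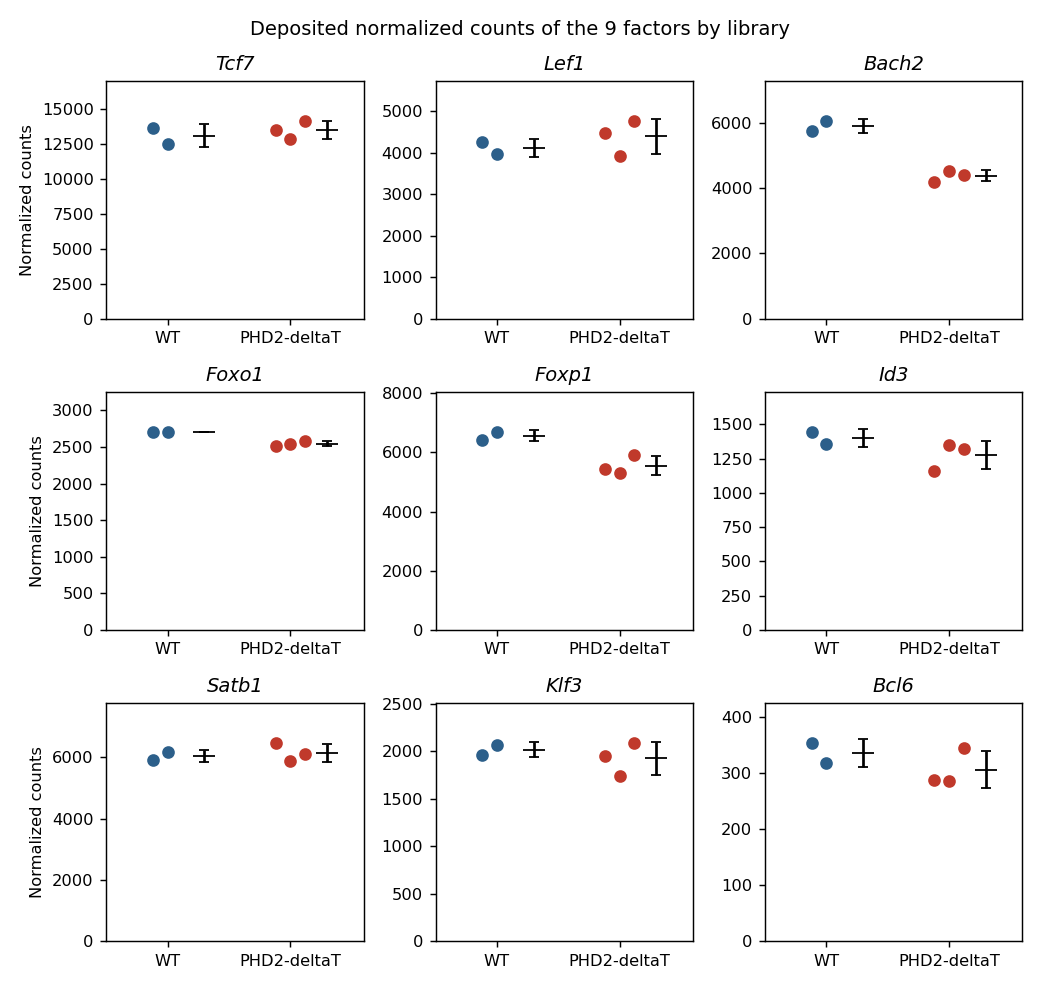
Normalized counts of the 9 factors in each library, with the y axis from 0, a point per library, and the mean and SD (bars) beside the points of each genotype. Bach2 shows the clearest gap, from 4199 to 4539 in PHD2-deltaT and from 5760 to 6067 in WT, while the points of Tcf7, Lef1, Satb1, Klf3 and Bcl6 overlap.

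Bach2 (ENSMUSG00000040270; mm10 chromosome 4, 32238804 to 32586108, plus strand, 9 exon blocks) encodes the BTB and leucine zipper repressor that holds back effector genes in resting and memory T cells. The WT libraries held 5760 and 6067 normalized counts of Bach2, the PHD2-deltaT libraries 4199, 4539 and 4395. The highest PHD2-deltaT library lay well below the lowest WT library. On average Bach2 had 4378 ± 171 normalized counts (SD, n = 3) in PHD2-deltaT and 5914 ± 217 (SD, n = 2) in WT. This is a log2 fold change of -0.43 ± 0.07 (SE, limma-trend adjusted p = 0.00115). Bach2 thus fell by 26%, with a 95% confidence interval from -33.2% to -18.0%. It passed in all 5 fits that left out 1 library, with a limma-trend adjusted p of 0.0344 at most, without WT replicate 2. Limma without the mean-variance trend did not call it (adjusted p = 0.102). In the authors' deposited table its log2 fold change was 0.40 as WT over PHD2-deltaT, with an FDR of 8.67e-07. H2-Ab1, Cd74, Ly6c1, Itgax, Klrk1 and the mitochondrial share, given above, also separated the genotypes, and their part in the Bach2 result was not tested.

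The paralogue Bach1, a haem-regulated repressor, was at 1072 ± 16.8 (SD, n = 3) against 1044 ± 61.7 (SD, n = 2), with overlapping groups. Antisense to Bach2 lies Bach2os, whose exons cover 5.40% of the Bach2 exon bases. It had 23.3 to 31.4 normalized counts in PHD2-deltaT against 37.2 and 46.6 in WT (limma-trend adjusted p = 0.308). Whether counting used strand is not given in the sources used here, so reads in the shared bases cannot be assigned to either gene. The 3 genes whose library values ran closest to those of Bach2, by the root mean square difference of centred log2 values over 5 libraries, were Angptl4 (0.035), Bend4 (0.040) and Galnt3 (0.041). Bend4 fell by 0.44 on the log2 scale (limma-trend adjusted p = 0.00318), while Angptl4 (log2 fold change -0.37, limma-trend adjusted p = 0.0511) and Galnt3 (-0.41, adjusted p = 0.0771) missed the threshold. As these genes were chosen by closeness to Bach2 in the same libraries, fold changes near its own follow from the choice.

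Foxp1 (ENSMUSG00000030067; mm10 chromosome 6, 98925338 to 99522721, minus strand, 34 exon blocks) encodes the forkhead factor of T cell quiescence. The WT libraries held 6426 and 6698 normalized counts of Foxp1, the PHD2-deltaT libraries 5428, 5296 and 5918. The groups did not overlap, although PHD2-deltaT replicate 3 came close to the WT libraries. The log2 fold change was -0.24 ± 0.07 (SE), a 95% confidence interval of -24.1% to -6.06%, and the limma-trend adjusted p of 0.0761 missed the threshold. Foxp1 was called without PHD2-deltaT replicate 3 (limma-trend log2 fold change -0.29, adjusted p = 0.0465). The authors' deposited table gives it an FDR of 0.0469, and calls 3.95% of the genes with an FDR at that threshold of 0.05.

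Foxo1 (ENSMUSG00000044167; mm10 chromosome 3, 52268336 to 52353221, plus strand, 3 exon blocks) varied little, with 2517, 2547 and 2579 normalized counts where the label is PHD2-deltaT and 2709 and 2708 where it is WT. The groups did not overlap, but the log2 fold change of -0.09 ± 0.07 (SE) did not pass (limma-trend adjusted p = 0.643). Its 95% confidence interval ran from -15.0% to 4.06%. Id3 (ENSMUSG00000007872; mm10 chromosome 4, 136143497 to 136145755, plus strand, 4 exon blocks) was at 1158, 1349 and 1319 in PHD2-deltaT, against 1447 and 1356 in WT. PHD2-deltaT replicate 2 lay just below the lower WT library. The log2 fold change of Id3 was -0.14 ± 0.09 (SE, limma-trend adjusted p = 0.509), with an interval from -19.9% to 3.03%, and it ranged from -0.18 to -0.07 when 1 library was left out, the latter without PHD2-deltaT replicate 1.

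The HMG box pair did not pass the test. Tcf7 (ENSMUSG00000000782; mm10 chromosome 11, 52252371 to 52283014, minus strand, 12 exon blocks) stood in WT at 13649 and 12485 normalized counts, and in PHD2-deltaT at 13455, 12848 and 14160. The groups overlapped throughout, and the log2 fold change was 0.05 ± 0.07 (SE, limma-trend adjusted p = 0.864). The 95% confidence interval of Tcf7 ran from -7.53% to 15.3%, so a fall as large as that estimated for Bach2 lay outside it. The sign of Tcf7 turned without WT replicate 2 (-0.02).

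Lef1 (ENSMUSG00000027985; mm10 chromosome 3, 131110471 to 131224356, plus strand, 14 exon blocks) was at 4481, 3926 and 4775 in PHD2-deltaT, against 4263 and 3960 in WT. PHD2-deltaT held both the highest and the lowest library. Its log2 fold change was 0.09 ± 0.08 (SE, limma-trend adjusted p = 0.712), with an interval from -5.68% to 20.5%. Exons of Lef1 share 13.7% of their bases with the antisense gene Gm43352, and those of Foxo1 share 7.78% with Gm20402. The reads in the shared bases are not known.

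The chromatin organiser and the remaining repressors also overlapped between genotypes. Satb1 (ENSMUSG00000023927; mm10 chromosome 17, 51736187 to 51833290, minus strand) was at 6473, 5888 and 6094 in PHD2-deltaT, against 5905 and 6176 in WT. Its log2 fold change of 0.03 ± 0.07 (SE, limma-trend adjusted p = 0.927) had an interval from -8.27% to 12.9% and turned sign without PHD2-deltaT replicate 1 (-0.01) and without WT replicate 1 (-0.01). Klf3 (ENSMUSG00000029178; mm10 chromosome 5, 64803388 to 64832901, plus strand) was at 1954, 1742 and 2089 in PHD2-deltaT, against 1966 and 2072 in WT. Its log2 fold change was -0.07 ± 0.08 (SE, limma-trend adjusted p = 0.795, interval -15.7% to 7.74%), and turned sign without PHD2-deltaT replicate 2.

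Bcl6 (ENSMUSG00000022508; mm10 chromosome 16, 23965052 to 23988852, minus strand) was at 287, 286 and 345 in PHD2-deltaT, against 353 and 318 in WT. Of the 9 it rested on the fewest reads, 190 to 236 inferred per library, against 7341 to 10567 for Tcf7. Its log2 fold change of -0.14 ± 0.12 (SE, limma-trend adjusted p = 0.708) had the widest interval of the 9, from -24.1% to 8.96%. Leaving out 1 library moved it between -0.23 (without PHD2-deltaT replicate 3) and -0.06 (without WT replicate 1).

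**Figure D3:**
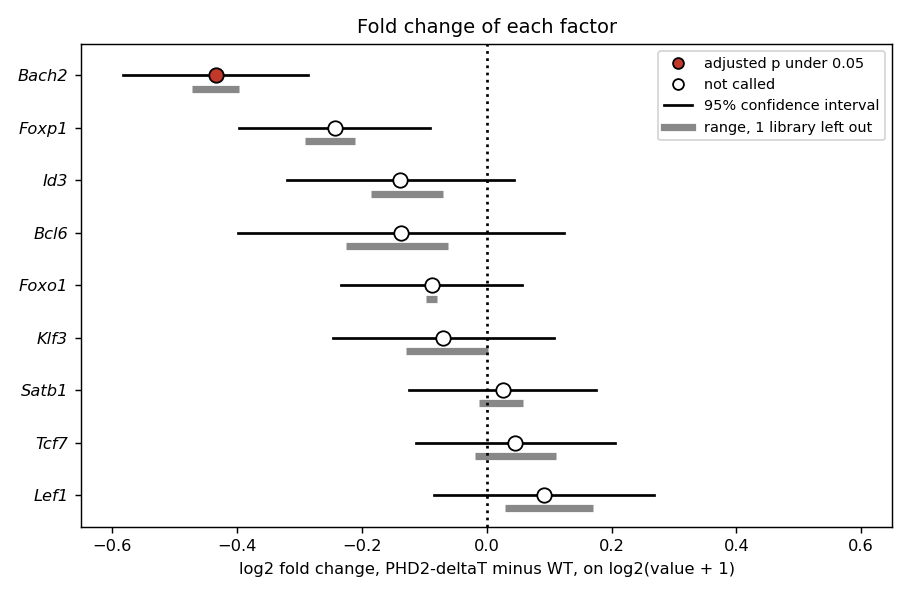
Log2 fold change of each factor, PHD2-deltaT minus WT, on the log2(value + 1) scale, with the 95% confidence interval (black line) and the range when 1 library is left out (grey bar). Bach2, at -0.43, is the factor past the threshold, the interval of Foxp1 (-0.24) also lies below 0, and the intervals of the other 7 include 0.

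The families and partners of the factors were read in the same fit. For comparison with the counts of each list, 2.97% of all genes tested were called as higher and 1.02% as lower. Of 13 tested paralogues, 2 were higher and 0 lower (median log2 fold change 0.04, against -0.01 over all genes tested). Both are KLF genes that are induced by stimulation: Klf6 went from 2404 and 2572 normalized counts in WT to 3161, 3169 and 3056 (log2 fold change 0.33), and Klf10, a TGF-beta inducible repressor, from 93.6 and 86.2 to 139, 160 and 138 (0.69). Without WT replicate 1 neither was called (adjusted p = 0.157 and 0.0761, limma-trend), and limma without the trend called neither. Klf10 was also lost without PHD2-deltaT replicate 2 (limma-trend adjusted p = 0.0700) and without WT replicate 2 (0.193).

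Of 21 tested partners and corepressors, 2 were higher and 0 lower (median 0.02). They were 2 of the small MAF proteins, which pair with BACH factors on DNA. Maff stood at 301, 281 and 308 normalized counts in PHD2-deltaT, against 168 and 157 in WT, a log2 fold change of 0.86 ± 0.13 (SE) that was called in every fit run. Mafg, at 1281, 1309 and 1263 against 1012 and 1065 (0.31), was lost in each fit that left out 1 library (limma-trend adjusted p from 0.0521 to 0.238), with quantile normalization and without the trend. The third small MAF gene, Mafk, at 1978 ± 138 (SD, n = 3) against 1729 ± 19.5 (SD, n = 2), did not pass (limma-trend adjusted p = 0.238). Values of the other listed partners, among them the TLE and NCOR corepressors, the CTBP proteins that KLF3 recruits and the E proteins that ID3 binds, did not pass.

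Of 22 naive and memory marker genes, 4 were higher and 1 lower (median 0.06), a list that includes Tcf7 and Lef1. The interleukin 6 and STAT inducible inhibitor Socs3 (log2 fold change 0.63), the memory marker Ly6c2 (0.52), the lymphotoxin gene Ltb (0.36) and Dapl1 (0.33), which is high in naive cells, were higher. The co-stimulatory receptor Cd28 was lower, at 7557, 8160 and 6218 normalized counts against 9311 and 10822 (-0.47). Without WT replicate 2 the list had 2 calls, and Ltb (limma-trend adjusted p = 0.176), Dapl1 (0.0689) and Cd28 (0.214) were lost. Of the 5 fits that left out 1 library, Dapl1 was called only in that without PHD2-deltaT replicate 2, and it was also lost with quantile normalization. Limma without the trend called 0 of the list.

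Of 17 tested FOXO1 target genes, 2 were higher and 1 lower (median 0.05). Sesn3, a stress-induced brake on mTORC1, fell from 5635 and 6058 normalized counts to 4241, 4176 and 4216 (log2 fold change -0.47), in each fit that left out 1 library. The T-box factor Eomes (0.51) rose in each of them as well, and the cyclin gene Ccng2 (0.56) was lost without WT replicate 1 (limma-trend adjusted p = 0.18) and WT replicate 2 (0.0533), and with robust eBayes (0.111). Leaving out PHD2-deltaT replicate 2 gave 5 calls in this list, and dropping the trend gave 0. Among homing and survival targets, these did not pass: the log2 fold change was 0.22 for Ccr7 (limma-trend adjusted p = 0.109), 0.23 for Il7r (0.15), 0.04 for S1pr1 (0.904) and 0.10 for Klf2 (0.778). Ccr7 passed with quantile normalization (limma-trend adjusted p = 0.0206) and Il7r without PHD2-deltaT replicate 2 (0.0211).

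Beside the naive and memory factors, 17 effector factors were tested, of which 7 were higher and 0 lower (median 0.24, with 2.97% of all genes called as higher). By smallest p they began with the stress-induced repressor Bhlhe40, whose log2 fold change was 1.10, and Tbx21, the gene of T-bet, with 0.79. Nfil3 (1.04), Eomes (0.51), which is also among the FOXO1 targets, and Rora (1.17) followed, and these 5 held in each fit that left out 1 library. Prdm1, the gene of BLIMP1, which BCL6 and BACH2 repress, was low, at 60.8, 72.0 and 40.9 normalized counts against 15.1 and 25.8 (1.47). It was lost without WT replicate 1 (limma-trend adjusted p = 0.136) and PHD2-deltaT replicate 2 (0.0560), and limma without the trend called 2 genes of the list. Of 11 tested genes that BCL6 or BACH2 is known to repress, 5 were higher and 0 lower (median 0.44, with 2.97% of all genes called as higher).

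These 5 were Ifng (1.24), the granzyme gene Gzmb (0.44), Prdm1, the haem oxygenase gene Hmox1 (1.11), better known as a BACH1 target, and Havcr2 (1.10). Without WT replicate 2 the count was 2 and Gzmb (limma-trend adjusted p = 0.189), Hmox1 (0.15) and Havcr2 (0.153) were lost. Without WT replicate 1 it was 3 and Prdm1 and Havcr2 (0.0524) were lost. Hmox1 was also lost without PHD2-deltaT replicate 3 (limma-trend adjusted p = 0.0767) and Havcr2 without PHD2-deltaT replicate 1 (0.0964), and limma without the trend called Ifng alone. Repression of these genes by BACH2 or BCL6 was not tested, nor was the part that the B cell, myeloid and natural killer markers called as higher have in the counts of effector and repressed genes.

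**Figure D4:**
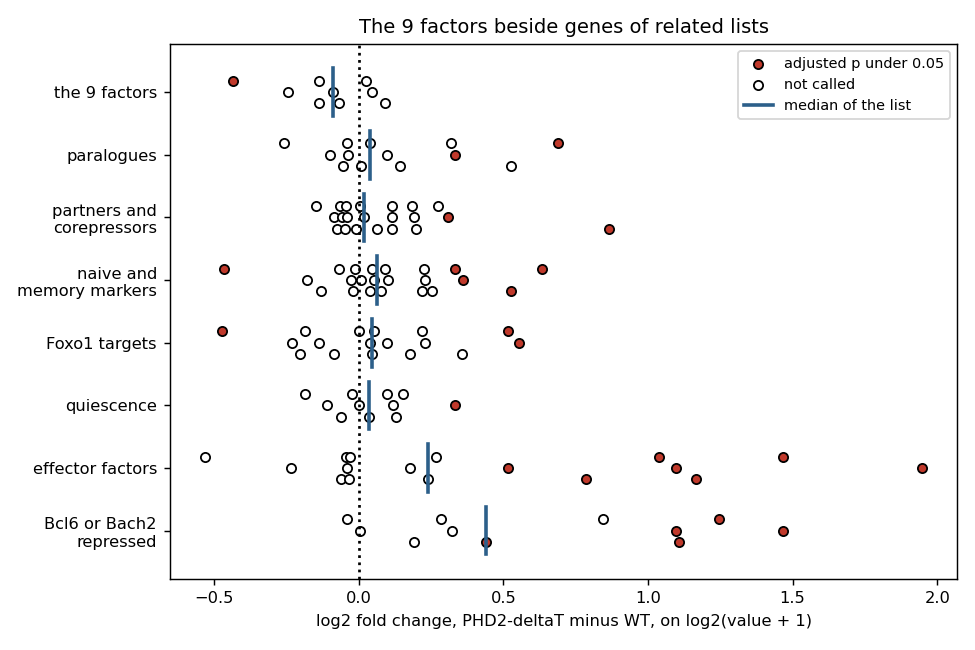
Log2 fold change, PHD2-deltaT minus WT, of every tested gene of the 9 factors and 7 related lists, with called genes (adjusted p under 0.05) filled and the median of each list as a vertical line. The 9 factors centre near 0 with Bach2 at -0.43. The medians of the effector factors (0.24) and of the genes repressed by Bcl6 or Bach2 (0.44) lie to the right. Of the 17 effector factors 10 lie above 0 and 7 below, the lowest at -0.53, and of the 11 repressed genes 10 lie above and 1 below.

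A ratio within a library does not depend on how libraries were scaled, so 7 factors were set against a fixed counterpart. The log2 ratio of Bach2 to Bach1 was 1.99, 2.08 and 2.01 in PHD2-deltaT, against 2.52 and 2.48 in WT. The log2 ratio of Tcf7 to Tbx21 was 2.29, 2.12 and 2.51 against 3.09 and 3.0. The log2 ratio of Bcl6 to Prdm1 was 2.22, 1.98 and 3.04 against 4.46 and 3.58. In these 3 pairs the groups did not overlap, and each gave an exact permutation p of 0.1, or 0.233 adjusted over the 7 pairs. That p is the smallest that the 10 ways of labelling 5 libraries allow, so that this design cannot reach 0.05. For comparison, 14.5% of all single genes tested lay lower and 16.0% higher in every PHD2-deltaT library than in WT. A share for ratios of other genes is not given here.

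For Tcf7 and Bcl6 the lower ratio came with a higher counterpart, Tbx21 and Prdm1. Both counterparts were called as higher above, so these ratios are not separate evidence of a change in Tcf7 or Bcl6. For Bach2 the lower ratio came with the lower factor. The log2 ratio of Foxo1 to Foxo3 was 0.51 ± 0.05 (SD, n = 3) against 0.61 ± 0.01 (SD, n = 2), without overlap (exact permutation p = 0.2). The ratios of Id3 to Id2, Lef1 to Tcf7 and Klf3 to Klf2 overlapped between genotypes, with exact permutation p of 0.5, 0.5 and 0.4. Lef1 kept a log2 ratio to Tcf7 between -1.71 and -1.57 in all 5 libraries.

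**Figure D5:**
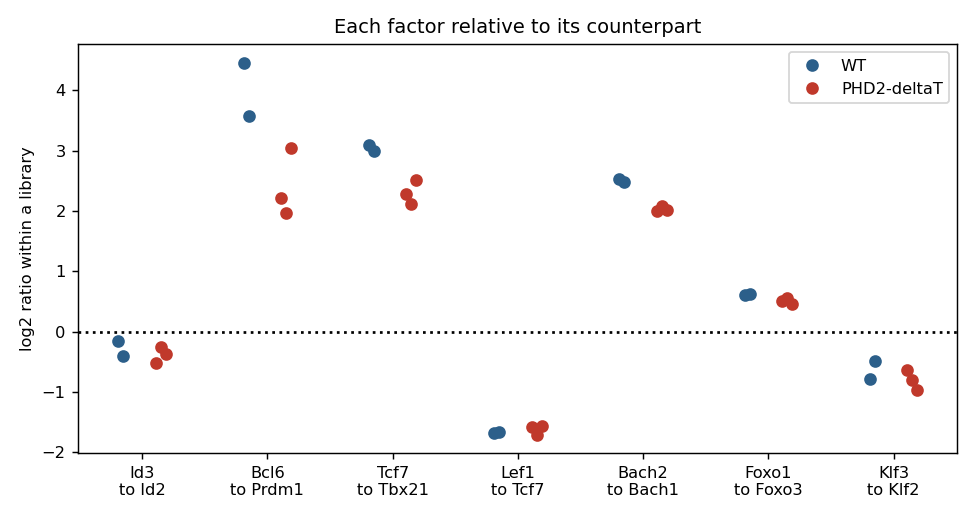
Log2 ratio of each of 7 factors to its counterpart within a library, with a point for each of the 2 WT and 3 PHD2-deltaT libraries. The ratios of Bcl6 to Prdm1, Tcf7 to Tbx21, Bach2 to Bach1 and, by less, Foxo1 to Foxo3 are lower in all 3 PHD2-deltaT libraries than in both WT libraries. That of Lef1 to Tcf7 stays between -1.71 and -1.57.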

How the data were processed

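Per the labels' protocols, an RNeasy Plus Mini kit was used on sorted CD8 T cells, and the paired-end libraries are Ovation SoLo RNA-Seq. The submitters' processing notes name the mm10 build, HTSeq 0.9.1, STAR 2.5.3 and Trimmomatic 0.36. The sources used here give neither the scaling nor the comparison tool nor the strand setting. The authors deposited a normalized signal (normalized counts, per the file headers) for 11564 genes in 5 libraries. The authors also deposited log2 fold changes, and FDR values (adjusted p-values) for all but 225 genes.

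In each library all values were whole multiples of a step (tolerance 1e-06), with gaps from which 10821714 to 15386958 reads per library were inferred. The best multiplier accounted for 98.2% to 99.8% of values under 2000 steps, against 54.1% to 77.0% by chance. The values are rescaled, so no count test was run. Gene names that a spreadsheet had turned into numbers (17) were replaced by their ID's name, and 11538 IDs were in the reference names. Positions, exons and overlaps came from GENCODE M21, promoter windows from RefSeq on GRCm38.p6.

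Genes with at least 10 in at least 2 libraries (11534) were fitted as log2(value + 1), which understates the change of low genes. Genotype was the single term of the fit, made with limma 3.58.1 under R 4.3.3 with a mean-variance trend, two-sided, at an adjusted p of 0.05. The fit was also run on simulated counts, with a pass mark set only on large changes, so it is no check of changes as small as that of Bach2. On the deposited values the fit had 3 residual and 12.8 prior degrees of freedom. Named genes are the 9 factors, up to 6 called genes by smallest p in each list, and the 3 closest in pattern to a called factor. Mafk, Bach1, Ighm, Xcl1, Nkg7, Il2ra, Egln1, Peli1, Btg2, Tob2, Trac, Cd3e, Cd3g, Bach2os, Ccr7, Il7r, S1pr1, Klf2, Cd8a, Cd8b1 and Cst3 were also named after their values were seen, to complete a family or a check. Cd68, Fcgr3, Cd3d and Cd5 were likewise named after their values were seen. Factors and lists were chosen with earlier results of these data known. Replicates are numbered in accession order within a genotype, which pairs nothing. Some items are not reported here.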

Additional observations from a re-analysis of the deposited data

How the results depend on the processing

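With pseudocounts of 0.5 and 5, no filter, a mean of at least 50, median-ratio or quantile scaling, robust eBayes and array weights, the factors kept their direction and their side of the threshold. Median-ratio scaling changed nothing, since the deposited values were already level by that measure. Without the trend the calls fell to 0 of the 9 factors (Bach2 stayed at -0.43, adjusted p = 0.102), 96 of all genes and 4 genes of the 7 related lists, against 22 in the reported fit. These 7 lists were put through the same settings after the data were seen. With 1 library left out, calls ranged from 1 to 2 among the 9 factors, from 244 to 523 among all genes and from 13 to 21 in the related lists. Without WT replicate 1 the related lists had 14. Log2 fold changes over these fits ran from -0.291 to -0.211 for Foxp1 (called without PHD2-deltaT replicate 3), -0.129 to 0.0016 for Klf3, -0.0118 to 0.0578 for Satb1, -0.0183 to 0.110 for Tcf7, 0.0297 to 0.171 for Lef1, -0.226 to -0.0617 for Bcl6 and -0.185 to -0.0705 for Id3. The difference in the log2 ratio of Id3 to Id2, -0.10 as reported, ran from -0.221 to 0.0268, the latter without WT replicate 1. The cause of these changes was not tested. No paired analysis was possible because the labels give no replicate numbers. The intervals of Id3 and Bcl6 include 0.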

Other observations

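Genes that hold T cells in quiescence, a list partly shared with the KLF factors, were read in the same fit. Over all genes tested, 2.97% were called as higher and 1.02% as lower, to set beside this list and the CD8 T cell markers. Of 11 tested, Klf6 was higher and 0 were lower, with a median log2 fold change of 0.03, and Klf6 was not called without WT replicate 1 (limma-trend adjusted p = 0.157). Peli1, an E3 ligase that restrains T cell activation, had a log2 fold change of -0.19 (limma-trend adjusted p = 0.175), and the antiproliferative genes Btg2 and Tob2 had 0.15 (0.299) and 0.12 (0.531).

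Among the CD8 T cell markers, 3 of 12 were higher: Thy1 at 0.57, Cd2 at 0.39 and the CD3 zeta chain gene Cd247 at 0.29 on the log2 scale. Cd2 and Cd247 were lost without WT replicate 2 (limma-trend adjusted p = 0.0929 and 0.431), and Cd247 also without PHD2-deltaT replicate 1 (0.0820) and PHD2-deltaT replicate 3 (0.0814). Limma without the trend called 0 of this list (adjusted p = 0.0606 for Thy1, 0.174 for Cd2 and 0.251 for Cd247). The antigen receptor genes Trac (-0.16), Cd3e (-0.15) and Cd3g (-0.12) did not pass, nor did Cd5 (-0.19). These 4 of the 12 lay lower in every PHD2-deltaT library than in WT, against 14.5% of all genes tested. Cd3d (0.002) overlapped between genotypes. Exons of Cd247 share 60.3% of their bases with other genes, among them the antisense gene Pou2f1.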
